A study of Mus musculus with 8 samples.

Results

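The genes of MHC class II antigen presentation were followed in wound macrophages of the mouse, taken from skin 1 day and 3 days after it was injured. The set holds 10 genes, named by symbol and found through the gene identifiers of the count table, out of 55414 genes in that table. They are the classical chain genes H2-Aa, H2-Ab1 and H2-Eb1, the invariant chain gene Cd74, the transactivator gene Ciita, the peptide exchange genes H2-DMa, H2-DMb1 and H2-DMb2, their modulator H2-Oa, and the thiol reductase gene Ifi30. The rule that names them uses no measured value, but the set was chosen with earlier results of these data known. Each library was made from wound-bed cells selected with magnetic beads against F4/80, a macrophage surface protein. Each pooled 6 wounds from 3 mice. There were 3 libraries at day 1 (a to c) and 5 at day 3 (a to e). All of the mice were wounded, and strain, genotype, sex and age are not stated in the labels. Nor do they say whether pools shared mice, and the p-values therefore measure the spread between pools.

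MHC class II molecules carry peptides from engulfed proteins to the cell surface, where CD4 T cells read them. An alpha and a beta chain pair in the endoplasmic reticulum around the invariant chain, which blocks the groove and leads the complex to endosomes. There proteases such as cathepsin S trim the invariant chain down to a short peptide, DM exchanges that peptide for others, and DO restrains DM. CIITA does not bind DNA itself. It is recruited to a set of factors (RFX, CREB and NF-Y) that sit on a conserved promoter module, with an X box and a Y box, before the class II, DM and invariant chain genes. Interferon-gamma induces Ciita in macrophages, whereas dendritic cells and B cells express it constitutively.

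That promoter module is shown first, because it is the sequence that several of these genes share. RefSeq promoter entries (GRCm38.p6) matched 7 of the 10 genes, and H2-Ab1, Cd74 and Ciita had none. In the 250 bases before each start, both strands were searched for the Y box TGATTGG, which is the inverted CCAAT sequence bound by NF-Y, and for an X box pattern: AAC, then 2 or 3 bases of any kind, TGA, 1 base of any kind, and G. The patterns were written after these promoters had been read, so their presence here is a description. H2-Aa, H2-Eb1, H2-DMb1 and H2-DMb2 held the X pattern followed by the Y box, with 19, 17, 18 and 18 bases between them. H2-Oa held the Y box alone, and in the windows of H2-DMa and Ifi30 neither was found. The X pattern and the Y box are in capitals, each sequence reads 5′ to 3′ on the strand of its gene, and the positions are those of GRCm38.p6.
H2-Aa, chr17:34287857-34287927, minus strand: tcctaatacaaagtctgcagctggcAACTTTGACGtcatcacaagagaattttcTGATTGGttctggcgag
H2-Eb1, chr17:34305753-34305822, plus strand: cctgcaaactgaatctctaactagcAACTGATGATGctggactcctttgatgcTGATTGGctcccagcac
H2-DMb1, chr17:34153074-34153144, plus strand: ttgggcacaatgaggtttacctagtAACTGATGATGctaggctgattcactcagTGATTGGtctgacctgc
H2-DMb2, chr17:34145103-34145173, plus strand: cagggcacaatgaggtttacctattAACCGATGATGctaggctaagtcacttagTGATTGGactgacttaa
H2-Oa, chr17:34092289-34092350, plus strand: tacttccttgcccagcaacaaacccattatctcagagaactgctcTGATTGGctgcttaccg

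Across all 32851 promoter entries, 7.23% held the Y box, 4.68% the X pattern and 0.0426% (14 entries) the X pattern followed by the Y box at a distance of 10 to 30 bases. Of those 14, 10 belonged to other genes, among them H2-Ob, which encodes the beta chain of DO. H2-DMb1 and H2-DMb2 are neighbouring copies, and from the X pattern to the Y box their promoters were identical at 32 of 36 bases (88.9%). Over the libraries the log2 CPM of these copies had a Pearson r of 0.10 with each other, a description over 8 points.

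The libraries differed less in depth than in how many genes were seen. Total counts ran from 41566151 to 60289310. Levels are normalised CPM, the count over the library total scaled with TMM factors. The floor of detection was set at 3 counts, which is 0.0498 to 0.0722 CPM and covers counting error only. Genes with at least 1 count numbered 23928 to 27315 in the day 1 libraries and 14952 to 20557 in the day 3 libraries, ranges that did not overlap, and the part of this difference in the class II values was not tested. In day 1 a, 322 of the 7576 genes that had at least 2 CPM in all other libraries were under 0.2 CPM (4.25%). In the other libraries that share was between 0% and 0.296%. All 9 macrophage markers had counts, and their summed level was 16534 to 19476 CPM at day 1 and 27902 to 35400 CPM at day 3. Lyz2 and Cd68 were the most abundant of them, and most of the difference in the sum was Lyz2 (8167 ± 1609 and 19781 ± 2908 CPM). The markers did not all move one way: Fcgr1 was at 845 ± 131 and 433 ± 60.5 CPM, with days that did not overlap, and Csf1r and Mertk had log2 fold changes of -0.42 ± 0.36 and -0.25 ± 0.29. By edgeR 0 of the 9 were called, and by DESeq2 2 were higher and 1 lower. Adgre1, which encodes F4/80, was at 689, 829 and 940 CPM at day 1 and at 994 to 1181 CPM at day 3. In bulk libraries, fewer cells of a type and less RNA per cell cannot be told apart.

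Between the days, the class II chains, the invariant chain, H2-DMa, H2-DMb1 and Ciita had higher mean levels at day 3, H2-DMb2 and Ifi30 had differences smaller than their standard errors, and H2-Oa was detected at day 3 only, in some libraries. No member passed the threshold in the edgeR quasi-likelihood test (0 of 10 at an adjusted p under 0.05), where 0.013% of the 15371 genes tested did. All 10 passed the filter on low counts, H2-Oa only through its day 3 libraries. At an unadjusted p under 0.05 there were 6 members higher at day 3 and 0 lower, where the shares of all genes were 5.16% and 10.5%. H2-Oa is among the 6, and since it passed the filter only through day 3 it had to differ, which leaves 5. DESeq2 called 2 members higher, H2-Aa (adjusted p = 0.000656) and H2-DMb1 (adjusted p = 0.0266), where it called 6.77% of all genes in either direction and 2.48% higher. Limma voom called H2-Aa (adjusted p = 0.0179), where it called 5.37% of all genes and 0.963% higher. The log2 fold change, day 3 minus day 1, was above 0 for 9 of 10 members and for 42.9% of all genes. H2-Oa is among these 9 as well, and its sign was fixed by its 0 counts at day 1. The median log2 fold change was 0.77 over the members and -0.17 over all genes tested. The median of the members was the same with H2-Oa set to the ratio of its day 3 mean to the floor of detection.

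**Figure D1:**
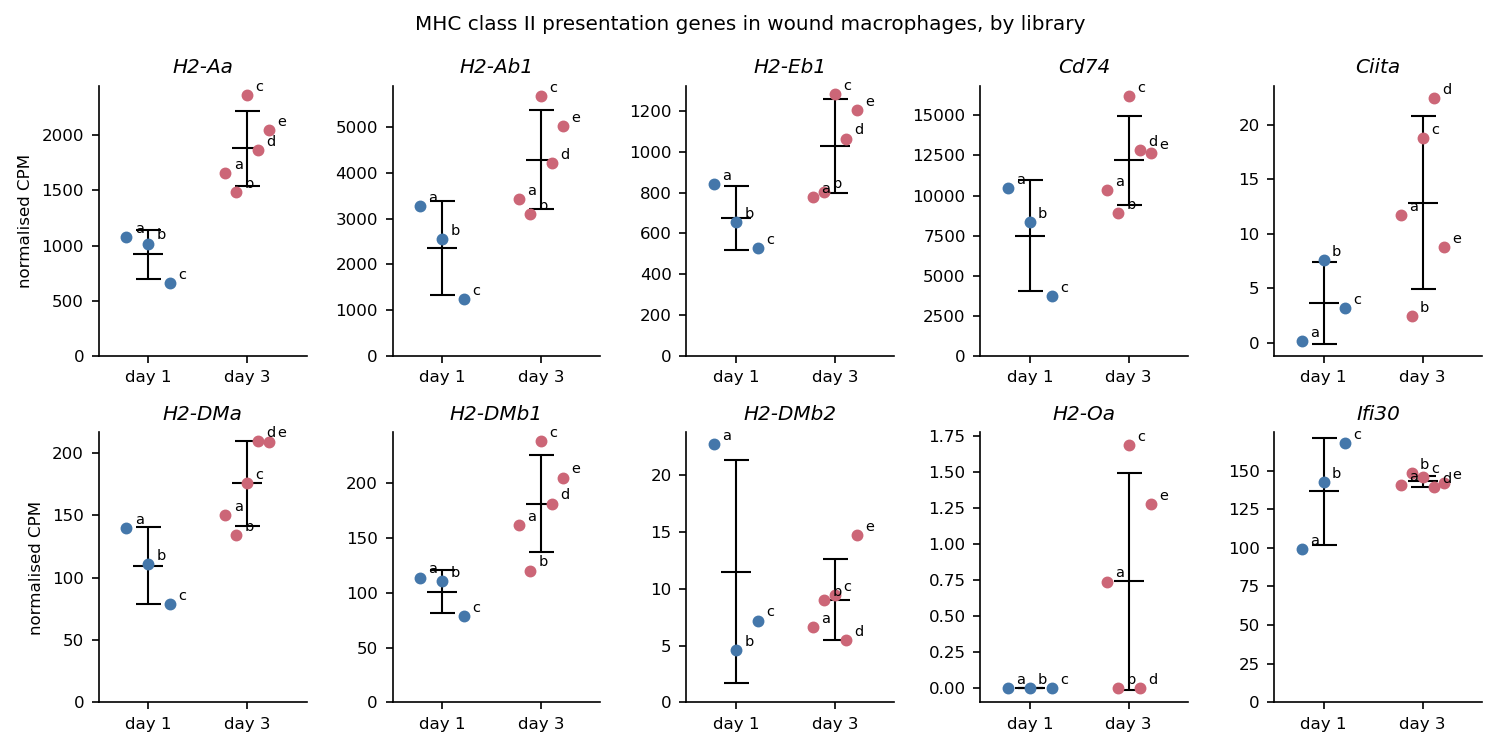
Normalised CPM (vertical axes, linear, a scale for each gene) of the 10 class II presentation genes in each library at day 1 (blue, n = 3) and day 3 (red, n = 5); letters name the libraries, the middle bar is the mean and the outer bars ± 1 SD. H2-Aa and H2-DMb1 are the genes whose day 3 libraries all lie above all day 1 libraries, and Ciita is close to 0 in day 1 a.

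The classical chain genes were abundant on both days. H2-Aa (ENSMUSG00000036594; GRCm39 chromosome 17, 34501718 to 34506797, minus strand), which encodes the alpha chain of the A molecule, was at 1075, 1018 and 663 CPM in day 1 a to c. It was at 1652, 1486, 2360, 1865 and 2042 CPM in day 3 a to e. The days did not overlap, with day 1 c lowest and day 3 c highest. The means were 919 ± 223 and 1881 ± 340 CPM (SD, n = 3 and 5), with a log2 fold change of 1.03 ± 0.22 (SE) and an edgeR adjusted p of 0.0829. A stricter filter kept the 8142 genes that averaged 5 CPM or more and reached 1 CPM throughout 1 of the days. With it the log2 fold change of H2-Aa was 1.06 ± 0.22 and was called (edgeR adjusted p = 0.0417). In that fit 1.79% of the genes were called, 0.774% as higher (63 genes), and H2-Aa was the member called among 9 tested. That call was lost in edgeR fits that left out day 1 c (adjusted p = 0.0567), or at day 3 the library a (0.0967), c (0.113), d (0.106) or e (0.101). The DESeq2 call of H2-Aa held with each of the 8 libraries left out in turn. The limma voom call was lost when c (adjusted p = 0.0515), d (0.0564) or e (0.0506) of day 3 was left out.

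H2-Ab1 (ENSMUSG00000073421; chromosome 17, 34476663 to 34488393, plus strand), encoding the beta chain that pairs with it, was at 3270, 2558 and 1240 CPM in day 1 a to c. It was at 3428, 3093, 5675, 4218 and 5017 CPM in day 3 a to e. Day 1 a lay inside the range of day 3, and day 1 c was far below every other library. The means were 2356 ± 1030 and 4286 ± 1076 CPM. The log2 fold change was 0.86 ± 0.32 (edgeR adjusted p = 0.228), and it was 0.55 without day 1 c and 1.16 without day 1 a.

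H2-Eb1 (ENSMUSG00000060586; chromosome 17, 34524841 to 34535648, plus strand), the beta chain gene of the E molecule, was at 842, 657 and 529 CPM in day 1 a to c. It was at 777, 804, 1284, 1065 and 1206 CPM in day 3 a to e. Day 3 a and b lay below day 1 a, so the days overlapped. With means of 676 ± 157 and 1027 ± 230 CPM, its log2 fold change was 0.60 ± 0.23 (edgeR adjusted p = 0.239). The E alpha chain gene is a pseudogene in this annotation (H2-Ea-ps), and it had counts in 1 library, day 1 b, at 1.12 CPM. Of the other chain genes, H2-Eb2 was at 0.0190 to 4.60 CPM over the 8 libraries and H2-Ob at 0 to 8.81 CPM. H2-Ob was the only 1 of these 3 genes to pass the filter, and it was not called (edgeR, -0.15 ± 2.08).

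Cd74 (ENSMUSG00000024610; chromosome 18, 60936920 to 60945724, plus strand), the invariant chain gene, was among the most abundant transcripts of these cells. It was at 10475, 8333 and 3708 CPM in day 1 a to c and at 10360, 8892, 16204, 12839 and 12644 CPM in day 3 a to e. Day 1 a exceeded day 3 a and b, and day 1 c was again lowest. By normalised CPM it ranked 7, 10 and 27 among all genes in the day 1 libraries, and between 4 and 9 at day 3. Means of 7505 ± 3459 and 12188 ± 2782 CPM gave a log2 fold change of 0.70 ± 0.33, with an edgeR adjusted p of 0.349. Without day 1 c it was 0.37 and without day 1 a 1.00. The 10 genes together took 1.53%, 1.29% and 0.669% of all counts in day 1 a, b and c, and 1.69%, 1.39%, 2.63%, 2.11% and 2.18% in day 3 a to e. Most of that share was Cd74.

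Levels were compared between genes as CPM per kilobase of exon. On that scale Cd74 was highest on both days (means of 4470 at day 1 and 7259 at day 3), followed by H2-Ab1 (917 and 1669). H2-Eb1 (348 and 528) and H2-Aa (242 and 495) came next, which differed from each other at day 3 by less than the SD of either. Ifi30 (139 and 146), H2-DMb1 (60.1 and 108) and H2-DMa (31.9 and 51.0) followed, and H2-DMb2 (6.59 and 5.18), Ciita (0.38 and 1.35) and H2-Oa (0 and 0.53) were lowest. The transactivator gene was thus among the scarcest transcripts of the set, and H2-DMb2 was far below its neighbouring copy H2-DMb1.

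Of the proportions between the abundant genes, that of Cd74 to H2-Ab1 varied least. In normalised CPM it was between 2.52 and 3.26 in all 8 libraries. The ratio of H2-Eb1 to H2-Ab1 was between 0.226 and 0.260 in 7 libraries and 0.427 in day 1 c, and that of H2-Aa to H2-Ab1 was between 0.329 (day 1 a) and 0.535 (day 1 c). Over the 8 libraries the log2 CPM of H2-Aa, H2-Ab1, H2-Eb1, Cd74, H2-DMa and H2-DMb1 had pairwise Pearson r from 0.903 (Cd74 and H2-DMb1) to 0.987 (Cd74 and H2-Ab1). With each gene centred on its day, r ran from 0.767 (H2-DMa and H2-DMb1) to 0.983 (Cd74 and H2-Ab1). These values are given as a description. Each pair shares its libraries, and day 1 c was the lowest library in all 6 genes.

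**Figure D2:**
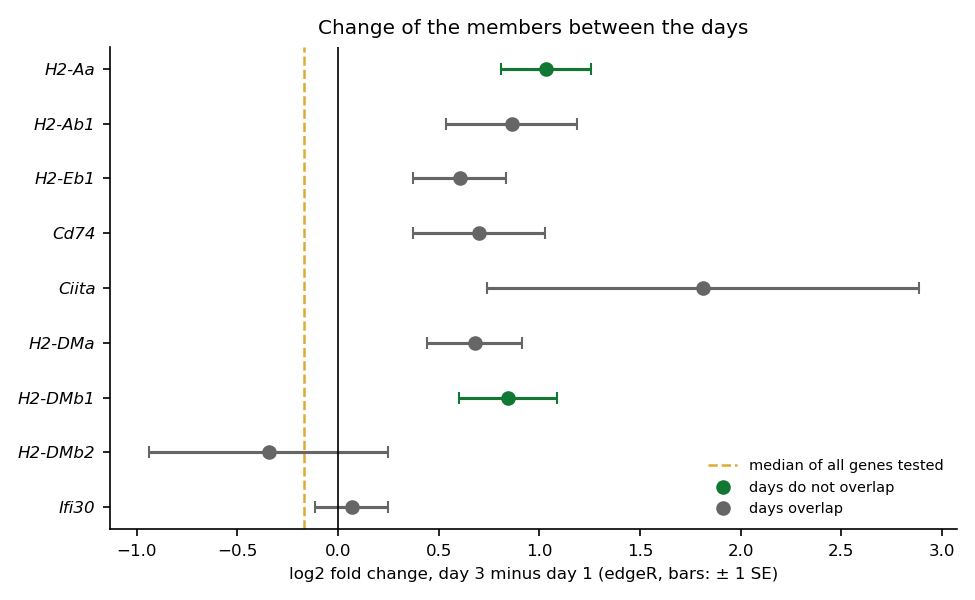
log2 fold change of the class II presentation genes, day 3 minus day 1, from the edgeR fit (points, with bars of ± 1 SE); H2-Oa, which is at 0 in every day 1 library, is left out. Green points are genes whose days do not overlap, and the dashed line is the median of all genes tested, at -0.17. H2-Aa (1.03) and H2-DMb1 (0.84) are the green points, Ciita has the widest bar, and H2-DMb2 is the only point below 0.

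The DM genes did not all follow the chains. H2-DMa (ENSMUSG00000037649; chromosome 17, 34338515 to 34358075, plus strand), the alpha chain gene of the peptide exchange factor, was at 140, 111 and 78.7 CPM in day 1 a to c. It was at 150, 134, 176, 210 and 209 CPM in day 3 a to e. Day 3 b lay below day 1 a, and the other day 3 libraries lay above all of day 1. The log2 fold change was 0.68 ± 0.24, from 110 ± 30.7 to 176 ± 34.2 CPM (edgeR adjusted p = 0.188). H2-DMa shares 360 of its 3448 exon bases (10.4%) with Brd2 on the opposite strand, and its counts were made with no option for strand.

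H2-DMb1 (ENSMUSG00000079547; chromosome 17, 34372046 to 34379204, plus strand), encoding a beta chain of DM, was at 114, 110 and 78.8 CPM in day 1 a to c. It was at 162, 120, 238, 181 and 205 CPM in day 3 a to e. The days did not overlap, although day 3 b was close to day 1 a and b. The log2 fold change was 0.84 ± 0.24, with means of 101 ± 19.3 and 181 ± 44.4 CPM and an edgeR adjusted p of 0.115. Its DESeq2 call was lost without day 1 c (adjusted p = 0.0857), or without c (0.104), d (0.0803) or e (0.0923) of day 3. H2-Aa and H2-DMb1 were thus the 2 of 10 members whose day 3 libraries all exceeded all day 1 libraries. That was so for 5.31% of all genes tested, and for 10.6% of the 3882 whose log2 CPM averaged 5 or more. In 0 members every day 3 library was below every day 1 library, which was so for 8.76% of genes.

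H2-DMb2 (ENSMUSG00000037548; chromosome 17, 34362281 to 34370529, plus strand), encoding the other DM beta chain, was at 22.7, 4.60 and 7.21 CPM in day 1 a to c. It was at 6.61, 9.01, 9.42, 5.49 and 14.8 CPM in day 3 a to e. Day 1 a was the highest of all 8, and the other day 1 libraries lay within or below the range of day 3. From 11.5 ± 9.79 and 9.06 ± 3.58 CPM, the fitted log2 fold change was -0.34 ± 0.60 (edgeR adjusted p = 0.848), or 0.58 without day 1 a. H2-DMb2 stood at 0.200 of H2-DMb1 in day 1 a and at 0.030 to 0.092 of it in the other 7 libraries. The copies are similar in sequence: 22.7% of the 50-base windows of H2-DMb1 transcripts and 21.2% of those of H2-DMb2 also occur in the other gene. Reads from such windows could have been placed on either or left out, so the split between them is uncertain.

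H2-Oa (ENSMUSG00000024334; chromosome 17, 34311314 to 34314208, plus strand), the alpha chain gene of the DM modulator DO, had 0 counts in all 3 day 1 libraries. It had 39, 0, 86, 0 and 67 counts in day 3 a to e, or 0.740, 0, 1.69, 0 and 1.28 CPM. It was therefore detected in 3 of 5 day 3 libraries, and the days overlapped at 0. The day 3 mean of 0.742 CPM was 12.5 times the floor of 3 counts per day 1 library (0.0595 CPM), which covers counting error only. The edgeR adjusted p was 0.245, with a fold change that depends on the prior count and is no bound. H2-Oa shares 321 of its 1407 exon bases with BC051537 on the opposite strand.

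Ifi30 (ENSMUSG00000031838; chromosome 8, 71215419 to 71219307, minus strand), encoding the lysosomal thiol reductase that unfolds disulfide-bonded antigens, had another pattern. It was at 99.4, 142 and 168 CPM in day 1 a to c and at 141, 148, 146, 140 and 142 CPM in day 3 a to e. The day 3 libraries lay within a narrow range, inside the wider range of day 1, and day 1 c, which was lowest for the chains, was highest for Ifi30. The log2 fold change was 0.07 ± 0.18 (136 ± 34.6 and 143 ± 3.57 CPM; edgeR adjusted p = 0.907), and -0.14 without day 1 a.

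Ciita (ENSMUSG00000022504; chromosome 16, 10297923 to 10346282, plus strand) was scarce and variable. It was at 0.151, 7.61 and 3.20 CPM in day 1 a to c, and at 11.8, 2.46, 18.8, 22.5 and 8.79 CPM in day 3 a to e. Day 1 a had 6 counts of Ciita, against 121 to 1305 in the other libraries, and day 3 b lay below day 1 b and c. With means of 3.65 ± 3.75 and 12.9 ± 7.96 CPM, its log2 fold change was 1.81 ± 1.07, at an edgeR adjusted p of 0.473. It was 1.24 without day 1 a and 2.93 without day 1 b. DESeq2 called it in 1 of the fits with a library left out, that without day 1 b (adjusted p = 0.0471).

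The levels of the chains did not follow the level of Ciita in every library. In day 1 a, H2-Ab1 was 21651 times as abundant as Ciita in CPM, and in the other 7 libraries 188 to 1257 times. Ciita is itself 1 of the 322 genes that were under 0.2 CPM in day 1 a alone, so its low value there came with those of many other genes. Over all 8 libraries the log2 CPM of H2-Aa had a Pearson r of 0.54 with that of Ciita (exact permutation p = 0.168, adjusted p = 0.489 over 15370 genes) and a Spearman rho of 0.69 (exact permutation p = 0.0694, adjusted p = 0.545). For H2-DMb1 r was 0.58 (exact permutation p = 0.119, adjusted p = 0.436) and rho 0.69 (p = 0.0694, adjusted p = 0.545), for H2-Ab1 r was 0.34 (p = 0.364, adjusted p = 0.666) and rho 0.67 (p = 0.0831, adjusted p = 0.566), and for Cd74 r was 0.30 (p = 0.396, adjusted p = 0.688) and rho 0.62 (p = 0.115, adjusted p = 0.605). H2-DMa (r = 0.38, exact permutation p = 0.352, adjusted p = 0.658; rho = 0.71, p = 0.0576, adjusted p = 0.518) and H2-Eb1 (r = 0.35, p = 0.408, adjusted p = 0.694; rho = 0.45, p = 0.267, adjusted p = 0.715) were alike. No member passed, by either coefficient. The smallest exact p possible with 8 libraries was 2.48e-05. After adjustment over 15370 genes, 1 gene alone at that value could not pass. Missing the threshold therefore does not show that a member was unrelated to Ciita. Of all genes tested 13.2% had an exact permutation p of Pearson r under 0.05, and 0 (0.0%) did after adjustment. The median r of all genes was -0.049.

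Part of these values lay between the days. With both genes centred on their day, r was 0.0082 for H2-Aa, 0.21 for H2-DMb1, -0.17 for H2-Ab1, -0.15 for Cd74, -0.15 for H2-DMa and -0.14 for H2-Eb1 (exact permutation p within days from 0.650 to 0.990, adjusted p from 0.965 to 1). The centred values include day 1 a, with 0.151 CPM of Ciita. Over the 5 day 3 libraries alone r was 0.69, 0.79, 0.64, 0.79, 0.68 and 0.56 for the same genes, as a description with no p computed. Leaving out day 1 a and day 3 b, the libraries farthest from the median of Ciita, gave pooled r of 0.87, 0.85, 0.86, 0.91, 0.84 and 0.79 for the same genes over 6 libraries. The exact permutation p was then 0.0236, 0.0347, 0.0347, 0.0153, 0.0347 and 0.0583, and the adjusted p ran from 0.366 to 0.413. Without day 1 a alone r was 0.66 to 0.78, with adjusted p from 0.640 to 0.732 by the same exact permutation test. The size of the pooled r thus depended on those libraries, and no setting gave an adjusted p under the threshold. These settings have fewer orders than 8 libraries give (720 within days or over 6 libraries), so their smallest possible exact p is larger. Missing the threshold there likewise does not show that a member was unrelated to Ciita.

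H2-DMb2, H2-Oa and Ifi30 stood differently to Ciita. H2-DMb2 had an r of -0.69 (exact permutation p = 0.0595, adjusted p = 0.380) and a rho of -0.40 (p = 0.327, adjusted p = 0.757). Day 1 a had the most H2-DMb2 and the least Ciita, and without day 1 a and day 3 b r was -0.026 (exact permutation p = 0.958). For Ifi30 r was 0.67 (exact permutation p = 0.122, adjusted p = 0.438) and rho -0.17 (p = 0.703, adjusted p = 0.911). Without those libraries its r was -0.78 (exact permutation p = 0.0847), so its sign turned. H2-Oa, with 5 libraries at 0, had an r of 0.48 (exact permutation p = 0.244, adjusted p = 0.567) and a rho of 0.52 (p = 0.208, adjusted p = 0.681).

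**Figure D3:**
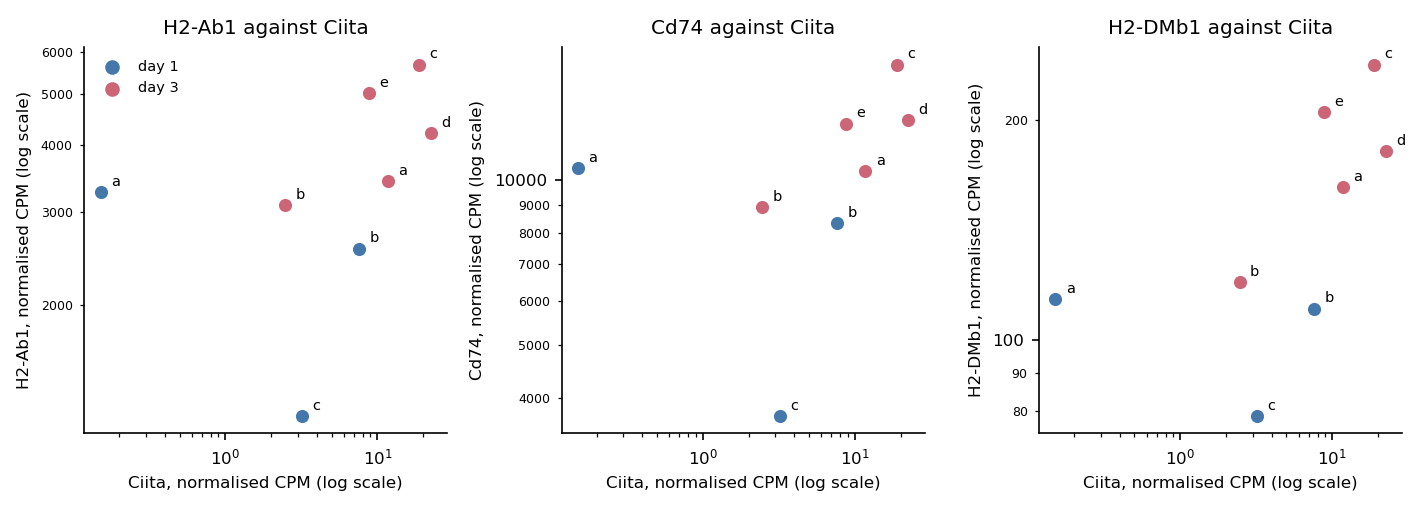
Normalised CPM of H2-Ab1, Cd74 and H2-DMb1 (vertical axes, log scale) against that of Ciita (horizontal axes, log scale) in each library of day 1 (blue) and day 3 (red); letters name the libraries. Day 1 a lies far to the left at 0.151 CPM of Ciita, with H2-Ab1 and Cd74 at the level of day 3 a.

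None of the listed regulators of class II promoters passed the test between the days. The list held the RFX and NF-Y subunit genes and Creb1, and also Crebbp, Ep300 and Kat2b. Of 10 regulator genes tested, edgeR, DESeq2 and limma voom each called 0, and at an unadjusted p under 0.05 edgeR had 1 higher and 0 lower. The gene with that p was Nfyb, which encodes a subunit of the Y box factor NF-Y. It was at 9.21, 30.3 and 18.5 CPM in day 1 a to c and at 45.7, 68.8, 32.1, 46.6 and 31.2 CPM in day 3 a to e, and the days did not overlap. Its log2 fold change was 1.21 ± 0.42 (edgeR adjusted p = 0.185). The partner subunit genes Nfya (23.8 ± 10.1 and 19.5 ± 4.86 CPM) and Nfyc (28.1 ± 3.52 and 21.3 ± 5.34 CPM) had overlapping days. Of the RFX subunit genes, Rfxank was at 12.2 ± 2.84 and 9.84 ± 2.45 CPM, while Rfx5 had 0 counts in day 3 a and b and Rfxap reached 21.5 CPM in day 1 c alone. The median log2 fold change of the regulator list was -0.30.

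Upstream of Ciita, the receptor genes of interferon-gamma were expressed, and Ifng itself had 0 counts in all 8 libraries. Of 13 genes 12 were tested, with 0 called by edgeR and, at an unadjusted p under 0.05, 1 higher and 1 lower. Ifngr1, the ligand-binding receptor chain, was at 457, 385 and 273 CPM in day 1 a to c and at 526, 643, 738, 764 and 758 CPM in day 3 a to e. The days did not overlap, and its log2 fold change was 0.88 ± 0.21 (edgeR adjusted p = 0.0829). DESeq2 (adjusted p = 0.00353) and limma voom (adjusted p = 0.0267) called it, and no other gene of the list. The other receptor chain gene, Ifngr2, was at 288 ± 33.9 and 243 ± 8.79 CPM (-0.25 ± 0.14), lower in every day 3 library than at day 1. Irf1, a transcription factor that interferon induces, was at 73.5 ± 46.3 and 35.7 ± 7.68 CPM (-1.04 ± 0.35, edgeR adjusted p = 0.176), with day 1 c at 127 CPM. The list's median log2 fold change was -0.29.

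Of 19 genes of antigen processing and class II trafficking, 0 were called by edgeR, with 3 higher and 3 lower at an unadjusted p under 0.05, and their median log2 fold change was -0.03. Of all genes tested, 5.16% were higher and 10.5% lower at that unadjusted p. Ctss, encoding the protease that trims the invariant chain, was at 9163, 8969 and 4132 CPM in day 1 a to c and at 11677 to 13282 CPM in day 3 (0.75 ± 0.26, edgeR adjusted p = 0.180). Cd83, whose product protects class II from ubiquitination by MARCH1, was at 1609 ± 731 and 3491 ± 140 CPM (1.12 ± 0.28, edgeR adjusted p = 0.0829). Cd63, a tetraspanin of late endosomes, was at 837 ± 114 and 1143 ± 152 CPM (0.45 ± 0.17). The adaptor subunit genes Ap1m1 (-0.55 ± 0.18) and Ap2m1 (-0.69 ± 0.18) and the phagosomal metal transporter gene Slc11a1 (-0.68 ± 0.20) had values below 0. DESeq2 called Cd83 higher and Ap2m1 and Slc11a1 lower, and limma voom called Cd83 higher and Ap2m1 lower. In all 6 genes the days did not overlap, but the 6 were named for their unadjusted p in the same comparison. Every day 3 library was above every day 1 library in 5.31% of all genes tested, and below in 8.76%.

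Of the 10 members 7 lie in 224 kb of chromosome 17 (GRCm39, 34311314 to 34535648), together with genes of class I presentation. The members were compared with these neighbours after the values had been seen. All 6 other genes tested in that stretch had a log2 fold change below 0, with a median of -0.45, and edgeR called 0 of them, with 3 at an unadjusted p under 0.05. Most genes tested were below 0 as well: 42.9% of all were above 0, and the median of all was -0.17. Tap1, encoding a subunit of the transporter that brings peptides to class I molecules, was at 122 ± 53.4 and 33.5 ± 3.06 CPM (-1.86 ± 0.27, edgeR adjusted p = 0.0603), and its days did not overlap. Tap2, its partner, was at 42.9 ± 26.8 and 15.5 ± 6.31 CPM (-1.47 ± 0.45). The immunoproteasome subunit genes Psmb9 (-0.49 ± 0.17) and Psmb8 (-0.27 ± 0.25), Brd2 (-0.40 ± 0.23) and H2-Ob (-0.15 ± 2.08) completed the 6. On the same stretch H2-DMb2 was below 0 as well, and the other 5 members with counts on both days were above 0.

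**Figure D4:**
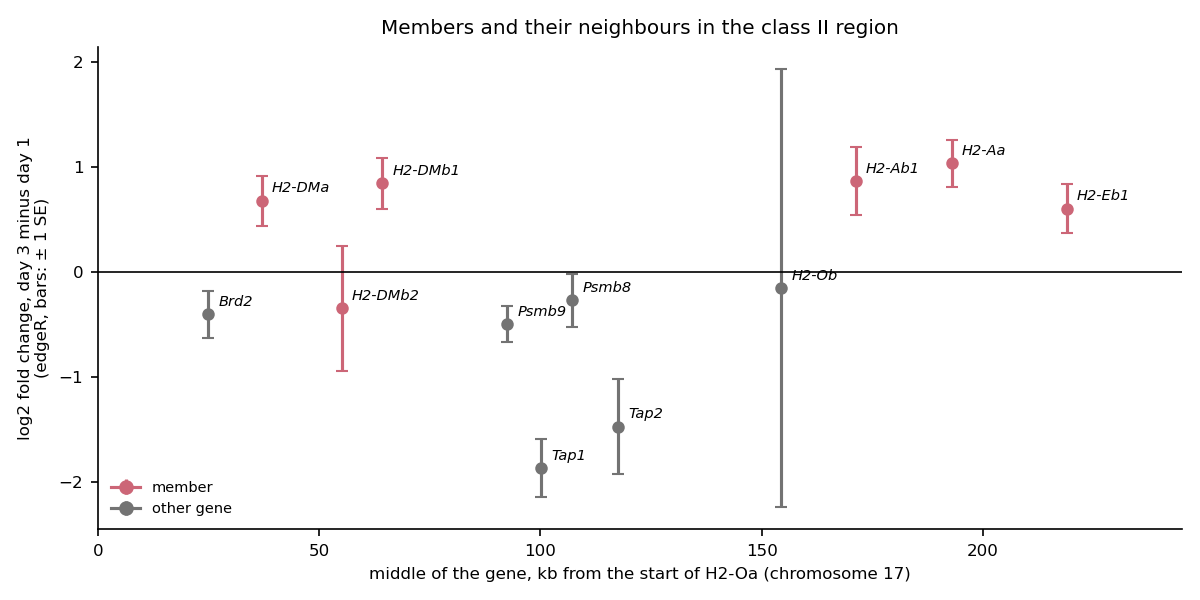
log2 fold change, day 3 minus day 1 (edgeR, vertical axis, bars ± 1 SE), of the tested genes of the class II region against the position of the middle of each gene in kb from the start of H2-Oa (horizontal axis); H2-Oa itself is left out. Members of the set are red and the other genes tested, among them H2-Ob of DO, are grey. The grey points all lie below 0, Tap1 lowest at -1.86, while every red point except H2-DMb2 lies above 0.

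Markers of other cells that carry class II had lower summed levels than those of macrophages. The lists hold different genes, so the sums do not give shares of cells. The part of those cells in the class II values was not tested. The 11 dendritic cell markers summed to 102 to 232 CPM at day 1 and to 74.3 to 208 CPM at day 3, highest in day 1 a and day 3 b. Ccr7 led the sum, followed by Ccl22 and Cd209a at like levels. Cd209a, at 11.8 ± 2.91 and 23.9 ± 7.15 CPM (1.02 ± 0.37, edgeR unadjusted p = 0.0208), was the 1 dendritic cell marker higher at an unadjusted p under 0.05, its days overlapped, and its part in the class II values was not tested. Itgae was the 1 lower (edgeR unadjusted p = 0.00298), at 0.217 to 1.74 CPM at day 1 and 0 at day 3, and passed the filter only through day 1. Ccr7 had a log2 fold change of -1.12 ± 0.59, and the median of the 10 markers tested was -0.80. Of these, edgeR and DESeq2 called 0, and limma voom called 1 lower. Xcr1 was at 2.31 to 14.8 CPM and Clec9a at 0.327 CPM or less in every library. The 8 B cell markers summed to 15.4 to 18.6 CPM at day 1 and to 21.8 to 48.1 CPM at day 3, days that did not overlap. Most of the day 3 sum was Cd79b, at 17.6 to 35.0 CPM, whereas Cd79a was at 0.182 CPM or less. The 2 Langerhans cell markers summed to 3.80 CPM or less in every library. The 6 T cell markers summed to 1.00 to 9.06 CPM at day 1 and to 2.64 to 8.31 CPM at day 3.

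Markers of other cells also differed with the days or with a library. Neutrophil markers (8 genes, led by S100a8 and S100a9) summed to 826, 2220 and 3884 CPM in the day 1 libraries a to c, in the reverse order of H2-Ab1 and Cd74, and to 3673 CPM in day 3 b against 448 to 665 CPM in the other day 3 libraries. In day 3 b H2-Aa, H2-Ab1, Cd74, H2-DMa and H2-DMb1 were the lowest of day 3. The 6 inflammatory monocyte markers summed to 3774 to 4289 CPM at day 1 and 2809 to 4035 CPM at day 3, with F13a1 (-0.05 ± 0.23) and Ccr2 (0.03 ± 0.25) making up most of the sum. The less abundant Ly6c2 (341 ± 163 and 84.7 ± 24.0 CPM, -2.01 ± 0.33), Plac8 (-0.95 ± 0.24) and Vcan (-2.22 ± 0.60) had days that did not overlap, and of the list edgeR called 0 and DESeq2 3 lower. Summed levels at day 1 and day 3 were 9.49 to 37.7 and 56.0 to 119 CPM for the 6 fibroblast markers, and 27.7 CPM or less for the 4 keratinocyte markers. The part of these cells in the class II values was not tested.

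The genes whose level most resembled that of the class II chains were sought among 3670 genes that have a symbol and a log2 CPM of 5 or more on average. Likeness was the Pearson r over the 8 libraries with the mean of the standardised log2 CPM of H2-Aa, H2-Ab1, H2-Eb1 and Cd74. Since the genes were ranked by it, it is a description. The 8 closest were Arpc5l (r = 0.98), Acer3 (0.98), Ndfip1 (0.98), Hacd4 (0.97), Tmco1 (0.97), Cd300ld (0.97), Zfhx3 (0.96) and Crlf3 (0.96), and with each gene centred on its day r was between 0.92 and 0.96. Arpc5l, a gene related to a subunit of the actin-branching complex, was at 36.7, 34.2 and 23.6 CPM in day 1 a to c and at 41.5, 41.8, 65.1, 58.8 and 57.2 CPM in day 3 a to e. Acer3, a ceramidase gene, was at 204, 196 and 108 CPM in day 1 and at 241, 203, 328, 279 and 266 CPM in day 3. Cd300ld, a receptor gene of myeloid cells, was at 412 ± 107 CPM at day 1 and 636 ± 81.2 CPM at day 3. In Arpc5l and Acer3, as in the chains, day 1 c was lowest and day 3 c highest.

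**Figure D5:**
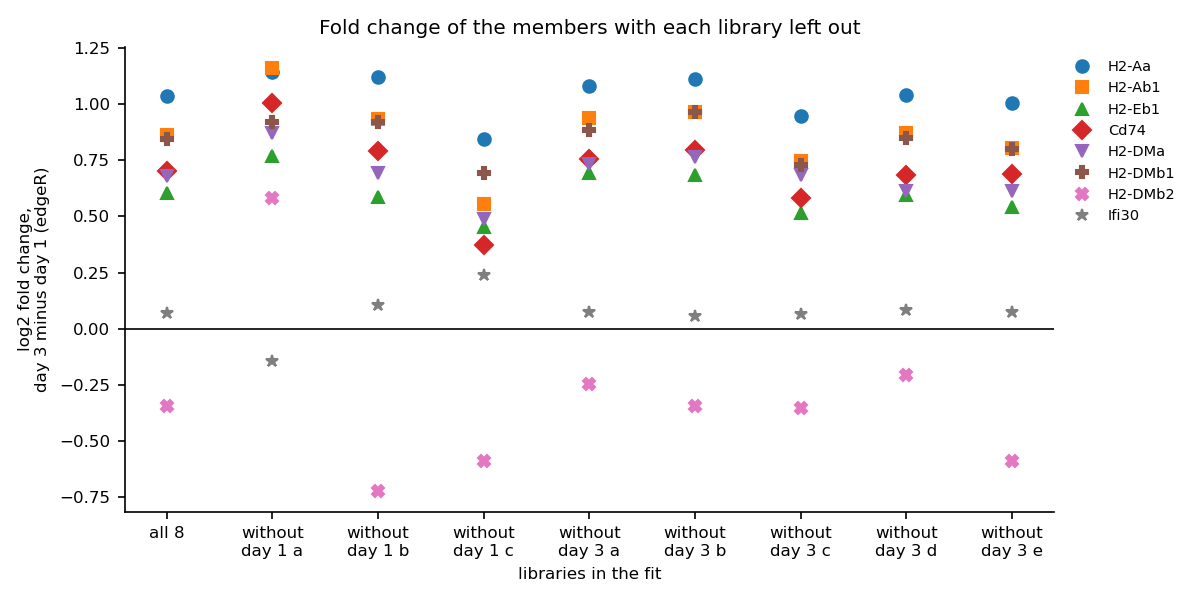
log2 fold change, day 3 minus day 1 (edgeR, vertical axis), of 8 class II presentation genes with all 8 libraries and with each library left out (horizontal axis); Ciita and H2-Oa are left out for scale. Leaving out day 1 c lowers the chains and Cd74 (to 0.37), leaving out day 1 a raises them (Cd74 to 1.00) and turns H2-DMb2 and Ifi30 to the other side of 0.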

How the data were processed

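RNA was sequenced in 3 day 1 and 5 day 3 libraries. The protocol in the labels states 6 samples per time point, and the 8 libraries are those analysed here. The authors deposited raw counts per gene. Per the file headers, they were made with featureCounts 1.6.0 on Ensembl release 106 (GRCm39), with no option for strand, read pairs or multiple positions. The submitters' processing notes name Trimmomatic and DESeq2. Which aligner was used is not given in the sources. Of counts from 2 to 20, 73.0% were even in day 1 c and 81.3% to 86.0% in the other libraries, so both reads of a pair may have been counted. The alignments named in the header carry partly other letters than the columns, so letters served as names only.

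Symbols were found for 52081 genes (94.0%). Counts were filtered with filterByExpr (minimum count 10), scaled with TMM and tested with the edgeR 4.0.16 quasi-likelihood test (two-sided). Values of p were adjusted by Benjamini-Hochberg over every gene tested, with calls at an adjusted p under 0.05. Correlations used log2 CPM (prior count 1) and all 40320 orders of the 8 libraries, or 720 orders within days or of 6 libraries. The alternatives were DESeq2 1.42.0, limma 3.58.1 voom, other scalings and filters, halved counts, libraries left out, and a block for the letters a to c. The combinations of a test or the stricter filter with a library left out, and the correlation without day 1 a, were chosen after seeing the data. The scripts were tested on simulated data and run in R 4.3.3 and in Python 3.11.15 with scipy 1.17.1, numpy 2.4.6, matplotlib 3.10.9 and pandas 2.3.3.

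The members, the pathway and marker lists and the rules were chosen with earlier results of these data known. Named were all members, every pathway gene with an unadjusted p under 0.05 or else the 2 most abundant of its list, the 2 most abundant markers of a list, and the 8 genes most like the chains. Some genes of the lists are not reported here. Other genes named were chosen after their values were seen.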

Additional observations from a re-analysis of the deposited data

How the results depend on the processing

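The direction of the members' fold changes was kept in most alternatives, while the number of calls depended on the test and the filter. That of the correlations with Ciita was kept in most settings, but several turned within days. Over all genes edgeR called 2. DESeq2 called 1041, limma voom 825, no filter 1347, the stricter filter 146, halved counts 47, the fit without day 1 a and day 3 b 25, and with 1 library left out edgeR called 0 to 59. In the 6 libraries with letters a to c, edgeR called 0 genes with the replicate block (1343 at an unadjusted p under 0.05) and 0 without it (1660), 2 members having an unadjusted p under 0.05 without the block and 1 with it. Libraries of the same letter had deviations from their day that correlated at 0.085, 0.026 and 0.0052, too low to treat the letters as pairs. By rank alone, 5 of 6 libraries correlated best with their own letter, a hint from the data and not from the design. Members called higher were 0 in the main test, 2 with DESeq2, 1 with limma voom, 5 without a filter (H2-Aa, H2-Ab1, H2-Eb1, Cd74 and H2-DMb1, where 210 of 38518 genes were called higher) and 1 with the stricter filter. With 1 library left out they ranged from 1 to 6 with DESeq2 (6 without day 1 a, with 425 of 17229 genes called higher, and 4 without day 3 b, with 352 of 14911), from 0 to 2 with limma voom and from 0 to 1 with the stricter filter. The members called lower were 0 in each of these.

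Of 174 fold changes under alternatives, 160 kept their side of the threshold and direction, 9 newly passed and 5 reversed. H2-DMb2 was at 0.058 with limma voom, 0.58 without day 1 a and 0.62 without day 1 a and day 3 b, and Ifi30 at -0.14 and -0.13 in the last 2. With 1 library left out H2-DMb2 ran from -0.72 to 0.58 and Ifi30 from -0.14 to 0.24. Of 54 correlations with Ciita, 7 reversed: within days H2-Ab1 (-0.17), H2-Eb1 (-0.14), Cd74 (-0.15) and H2-DMa (-0.15), and Ifi30 without day 1 a and day 3 b, the libraries farthest from the median of Ciita (-0.78 under either name), or without day 1 a (-0.65). The 54 hold the identical values without day 1 a and day 3 b under both names. Within days H2-Aa counts as kept although its r fell to 0.0082. The causes were not tested. H2-Oa had 0 counts in 5 libraries, among them day 1 b, which had the highest total count. The part of depth in this was not tested.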
